A study of Mus musculus with 2 samples.

Results

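The 9 genes described here are grouped under the methionine cycle and homocysteine remethylation: Mat1a, Mat2a, Mat2b, Gnmt, Ahcy, Ahcyl1, Bhmt, Bhmt2 and Mtr. Most encode enzymes of these routes, whereas Mat2b encodes a regulatory subunit and Ahcyl1 a relative of S-adenosylhomocysteine hydrolase. All 9 were taken by gene name from the arrays' own annotation, which holds 34797 distinct names, and 17 gene probes carry their names. Transcript levels were measured in CSE-KO beta cells, from C57BL/6J mice with a knockout of CSE, and in CSE-WT beta cells, from wild-type C57BL/6J mice. All mice were 6 months old and on a high-fat diet, and each genotype had 1 array with 1 Cy3-labelled sample. The allele of the knockout, the number of mice behind each sample and how the cells were isolated are not given in the sources used here.

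The methionine cycle links the sulfur amino acids to cellular methylation. Methionine adenosyltransferases make S-adenosylmethionine (SAM), the methyl donor of most methylation reactions. Methyltransferases turn SAM into S-adenosylhomocysteine, which inhibits many of them until it is hydrolysed to adenosine and homocysteine. Homocysteine is either remethylated to methionine or passed through cystathionine to cysteine by transsulfuration. CSE, cystathionine gamma-lyase, is the last enzyme of that second route and is encoded by Cth, so the comparison bears on how the cycle upstream of the missing enzyme is expressed.

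Values are processed intensities in scanner units. For a comparison, the log2 intensity was taken relative to the 75th percentile of the gene probes of its array, and differences are CSE-KO minus CSE-WT on that log2 scale. With 1 array per genotype there is no replicate check and no test. In its place stand a fixed size of 2-fold and a technical yardstick, the spot SD. It is the SD that a difference would have from the scatter between identical spots within each array, at the same level. The spot SD was estimated from 399 probes printed 10 times, and it shrinks with brightness, with a median of 0.083 log2 units over the measured genes. For levels outside the range with an estimate, the value at the nearest end of that range was used. The spot SD leaves out variation between the arrays in labelling and hybridisation, and it says nothing about the spread between mice. Intensities of different probes depend on their sequences and are not compared with each other.

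For Cth, neither of 2 probes passed the background flag, with 3.68 and 3.15 units on the CSE-KO array and 12.8 and 13.5 units on the CSE-WT array. Both readings were lower in the knockout, but the position of the probes relative to the deleted stretch is unknown, and the labels are checked by them only weakly. The beta-cell markers Ins1, Ins2, Iapp, Pdx1, Mafa, Nkx6-1, Slc2a2 and G6pc2 were all above background on both arrays, and so were 14 of 14 acinar and 7 of 7 other endocrine markers. Both arrays thus read transcripts of several pancreatic cell types. Fewer cells of a type and less RNA per cell cannot be told apart in them.

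Of the 9 genes, 8 had at least 1 probe well above background on both arrays, and 13 of the 17 probes passed. None of the 8 differed by 2-fold, a size reached by 1.6% of the 22160 genes measured. By more than 3 spot SDs, 2 were higher in CSE-KO (Mat1a and Gnmt) and 1 was lower (Ahcy). Of all measured genes 16.8% passed that yardstick, 7.84% being higher and 8.96% lower. By probe, 0 of the 13 differed by 2-fold (1.73% of all measured probes), and past 3 spot SDs 2 were higher and 3 lower, against 7.23% higher and 8.2% lower of all measured probes, 15.4% in all. The median difference of the 8 genes was 0.060, against -0.0060 over all measured genes, with 5 of the 8 above 0. The scanner program's own error for each spot was wider, 0.20 to 0.29 log2 units for a difference, and by it none of the 13 probes passed 3 errors and the largest reached 2.40.

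**Figure D1:**
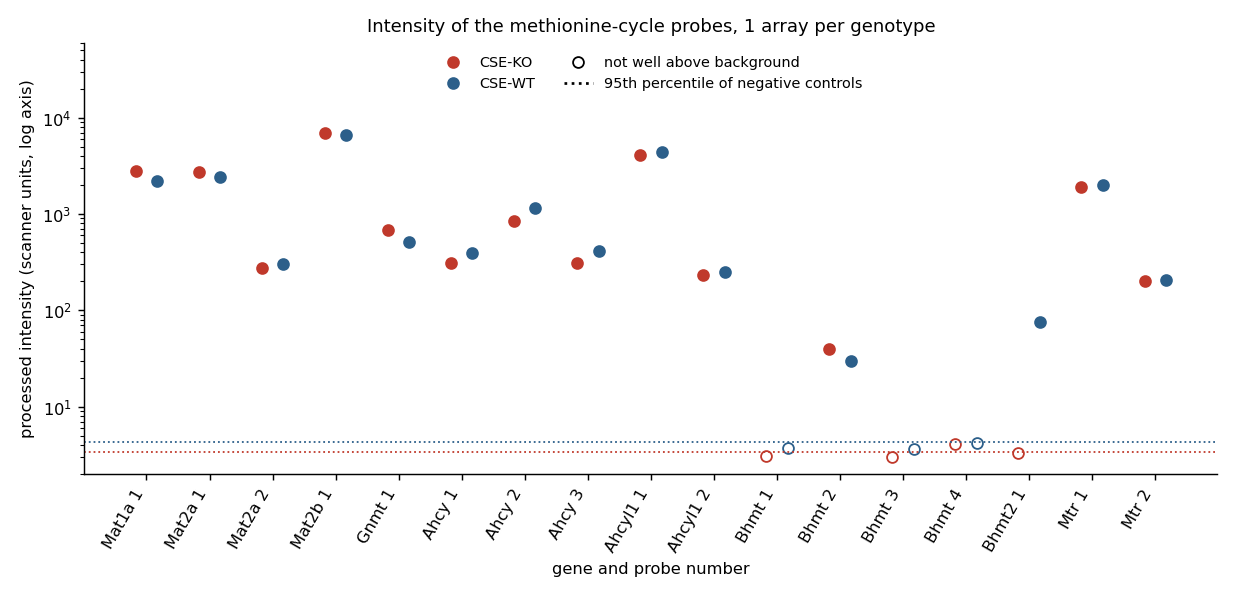
Processed intensity (log axis, scanner units) of each of the 17 probes on the CSE-KO array (red) and the CSE-WT array (blue), with probes numbered within a gene. Open circles mark readings not well above background, and dotted lines give the 95th percentile of the negative controls on each array. The readings of a pair lie close together except for Bhmt2, which read 3.29 units on the CSE-KO array and 75.5 units on the CSE-WT array.

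S-adenosylhomocysteine hydrolase, encoded by Ahcy, removes the product that inhibits methyltransferases. It was the gene with the clearest difference, and all 3 of its probes read lower in CSE-KO. In the mm9 build, on the minus strand, probe 1 is at chr2:154891321-154891380, probe 2 at chr2:154885047-154885106 and probe 3 at chr2:154894644-154894703, over 9.66 kb of the gene. Their sequences, like all those printed here, come from the deposited array files and run 5′ to 3′, and they are shown because 3 different stretches of the transcript all read lower. Probes 1 and 3 are whole, and of probe 2 bases 15 to 44 are given, with the polyadenylation hexamer AATAAA in capitals.
Ahcy probe 1: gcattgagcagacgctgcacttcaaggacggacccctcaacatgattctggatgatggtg
Ahcy probe 2: acctggaaagcaAATAAAaacaagccccgt
Ahcy probe 3: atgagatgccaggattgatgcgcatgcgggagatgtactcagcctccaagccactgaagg

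Ahcy probe 1 read 309 ± 31.1 units in CSE-KO and 397 ± 39.9 units in CSE-WT, where the error is the scanner program's for that spot. Probe 2 read 856 ± 85.6 units in CSE-KO and 1157 ± 116 units in CSE-WT. Probe 3 read 309 ± 31.1 units in CSE-KO and 415 ± 41.7 units in CSE-WT. Each pair was thus lower in the knockout by a similar proportion. The differences were -0.42, -0.49 and -0.48 (spot SD 0.096, 0.074 and 0.096), which is 1.34-fold, 1.41-fold and 1.40-fold lower. Their mean was -0.46 with an SD between the probes of 0.040. Among the 1198 genes of these arrays with 3 measured probes, all 3 pointed the same way in 45.7%, and their median range was 0.26, against 0.074 for Ahcy. No other probe of the arrays shares 20 bases with them, and binding to RNA of close copies of Ahcy was not tested.

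Ahcyl1 encodes a relative of the hydrolase that is known as IRBIT, a partner of the inositol trisphosphate receptor and of ion transporters. Its probe 1, at chr3:107466583-107466642 on the minus strand, read 4136 units in CSE-KO and 4386 units in CSE-WT. Its probe 2, at chr3:107468005-107468466 on the same strand, spans 462 bases of the genome with its 60 bases and read 231 units in CSE-KO and 249 units in CSE-WT. Both were slightly lower in the knockout, by differences of -0.14 and -0.17. Neither passed 3 spot SDs, at 2.49 and 1.47 times its spot SD. The third family gene, Ahcyl2, was at 11066 units in CSE-KO and 11465 units in CSE-WT, a difference of -0.11 that also stayed within 3 spot SDs.

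SAM is made by 2 catalytic subunits with different tissue patterns. Mat1a encodes the catalytic subunit that dominates in adult liver, and Mat2a the one used by most other tissues. The Mat1a probe, on the plus strand at chr14:41937140-41937199, read 2778 ± 278 units in CSE-KO and 2224 ± 222 units in CSE-WT. The knockout reading was thus the higher one, by 0.27 (1.20-fold, 4.25 spot SDs). With normexp background correction and the same scaling the difference was 0.19 and no longer passed 3 spot SDs.

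Mat2a had 2 probes with opposite signs. Probe 1, at chr6:72382856-72382915 on the minus strand, read 2708 units in CSE-KO and 2406 units in CSE-WT, a difference of 0.12. Probe 2, at chr6:72385926-72385985 on the same strand, read 278 units in CSE-KO and 303 units in CSE-WT, a difference of -0.18. Neither passed 3 spot SDs, and the direction for Mat2a depends on the probe, with a mean of -0.031. Probe 1 is shown by its first 30 bases and probe 2 whole, since the sign turns on which stretch of the transcript is read.
Mat2a probe 1: tgactgcttgccctaagcaagaaagtgcct
Mat2a probe 2: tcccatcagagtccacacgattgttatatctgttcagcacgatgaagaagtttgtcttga

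Mat2b encodes the regulatory subunit that binds the Mat2a product. Its probe, at chr11:40492969-40493028 on the minus strand, read 6971 units in CSE-KO and 6689 units in CSE-WT. The arrays were close to equal for it, with a difference of 0.0040 and a spot SD of 0.056, and its sign changed with the scaling and the background correction.

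Gnmt encodes glycine N-methyltransferase, an abundant enzyme of liver and exocrine pancreas that uses SAM to turn glycine into sarcosine and so disposes of excess methyl groups. Its single probe, shown because it carries the largest upward difference of a measured member, spans 149 bases of the genome at chr17:46862894-46863042 (minus strand), longer than its 60 bases.
Gnmt probe 1: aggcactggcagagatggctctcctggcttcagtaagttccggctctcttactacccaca

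The Gnmt probe read 683 ± 68.4 units in CSE-KO and 508 ± 51.0 units in CSE-WT. The knockout was thus higher by 0.37 (1.29-fold, 4.42 spot SDs). Over the other scaling and background settings the difference lay between 0.32 and 0.43.

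Mat1a and Gnmt are known from liver, and Gnmt from acinar cells as well, so the markers of those cells are given beside them. All sums here and below are of unscaled intensities and depend most on the brightest probes. The arrays' 75th percentiles were 540 units in CSE-KO and 519 units in CSE-WT, so the sums are not read as differences. The 14 acinar markers summed to 592058 units in CSE-KO and 588198 units in CSE-WT. Their median difference on the scaled log2 values was 0.039. By more than 3 spot SDs, 4 were higher and 3 lower, against 7.84% and 8.96% of all measured genes. Of these, Ctrb1 differed by 0.46 and Bhlha15 by 0.17, whereas Amy2a5 differed by -0.42, and Ptf1a, also lower, had its probe in a local patch of uneven brightness. Of 9 hepatocyte markers 5 were measured, none past 3 spot SDs (median -0.28), and they summed to 9792 units in CSE-KO and 8684 units in CSE-WT. Apoa2 alone made up 8908 units in CSE-KO and 7770 units in CSE-WT, and without it the sum was 885 units in CSE-KO and 914 units in CSE-WT. Albumin (Alb) read 37.8 units in CSE-KO and 60.4 units in CSE-WT, and Apoa1, Ahsg, Cps1 and Hpx were not above background on both arrays. The part of acinar RNA in the Mat1a and Gnmt differences was not tested.

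**Figure D2:**
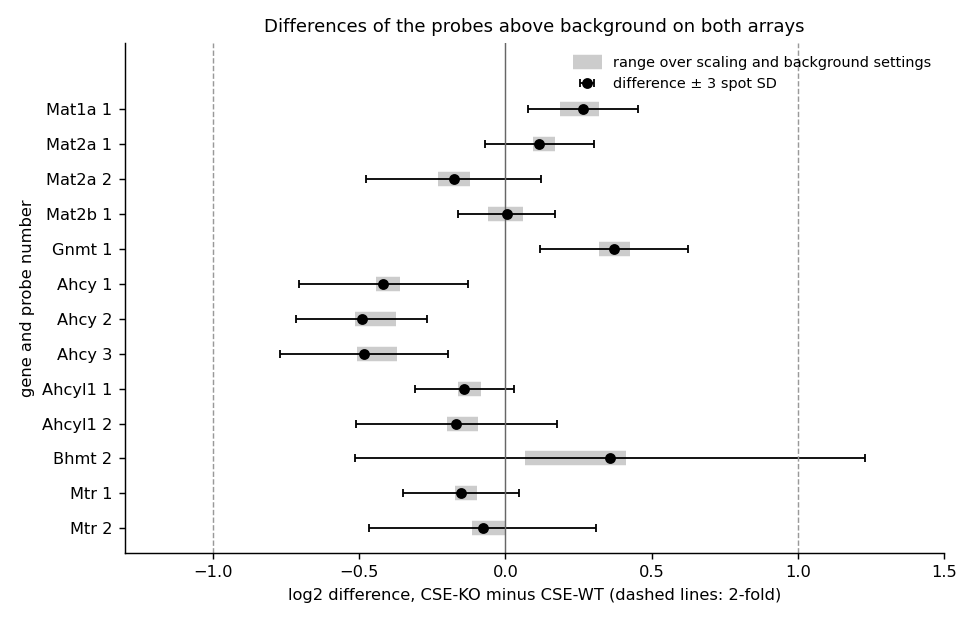
Log2 difference, CSE-KO minus CSE-WT, of the 13 probes above background on both arrays, with bars of 3 spot SDs. Grey bands give the range over the main setting and the other settings for scaling, background, outlier spots and the authors' table. The 3 Ahcy probes lie between -0.49 and -0.42, Gnmt at 0.37 and Mat1a at 0.27, and the bars of the other probes cross 0.

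Homocysteine is remethylated by methionine synthase, encoded by Mtr, which takes the methyl group from 5-methyltetrahydrofolate and needs cobalamin. Mtr probe 1, at chr13:12278823-12278882, read 1888 units in CSE-KO and 2017 units in CSE-WT. Probe 2, at chr13:12279165-12279224, read 202 units in CSE-KO and 205 units in CSE-WT. Both probes, on the minus strand, were close to equal on the arrays, with differences of -0.15 and -0.077, within 3 spot SDs. Probe 1 shares a run of at least 20 bases with 1 other probe of the arrays that carries a different gene name, and whether its reading is of Mtr alone was not tested. Its first 30 bases are shown for their repeats.
Mtr probe 1: ggttggtttggtttggtttggtttagtttt

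The betaine route of remethylation is the work of Bhmt, which is prominent in liver and kidney, and of its tandem neighbour Bhmt2, which prefers S-methylmethionine as methyl donor. Of 4 Bhmt probes, the 3 designed on the RefSeq transcript were not well above background on either array. Probe 1 read 3.07 units in CSE-KO and 3.73 units in CSE-WT, and probe 3 read 3.01 units in CSE-KO and 3.61 units in CSE-WT. Both lie below the median of the negative controls, which was 3.11 units in CSE-KO and 3.86 units in CSE-WT. Probe 4 read 4.07 units in CSE-KO and 4.16 units in CSE-WT, above the 95th percentile of the negative controls in CSE-KO (3.43 units) and below it in CSE-WT (4.32 units). Of the 308 negative-control spots, 190 in CSE-KO and 201 in CSE-WT were at least as bright as probe 1. The RefSeq transcript of Bhmt was thus not detectable at this sensitivity by these 3 probes, which by their given positions lie close together.

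Bhmt probe 2 alone was above background, and it was designed on an Ensembl transcript. It is at chr13:94395097-94395156 on the minus strand, the 4 probes together spanning 8.32 kb, and read 39.7 ± 5.03 units in CSE-KO and 29.9 ± 4.75 units in CSE-WT. The difference of 0.36 was 1.23 times its spot SD of 0.29, so the arrays were not told apart by it. The probe lay below the dimmest level with an estimate, so this spot SD was carried over from that level. With normexp background correction and the same scaling it was 0.066. At least as bright as this probe were 0 negative controls in CSE-KO and 8 in CSE-WT. Probe 1 is shown whole, and of probe 2 the first 30 bases. Of probe 3, bases 24 to 53 are given, with the hexamer AATAAA in capitals. They are shown because probes 1 and 3 were undetected and probe 2 gave a dim signal. Whether probe 2 also lies on the RefSeq transcript was not determined. For probe 1 the files place only 5 bases, at chr13:94386836-94386840. Probe 3 lies at chr13:94386856-94386915 and probe 4 at chr13:94386981-94387040.
Bhmt probe 1: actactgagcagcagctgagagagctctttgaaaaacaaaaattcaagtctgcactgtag
Bhmt probe 2: tatctacttaactttccagatctttttcca
Bhmt probe 3: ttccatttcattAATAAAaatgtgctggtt

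The hexamer, searched on the printed strand only, is present in 2 of the 17 probes and in 10.1% of all 55681 gene probes.

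Bhmt2 had 1 probe, at chr13:94426379-94426438 on the minus strand, and it was the only one of the 17 with a large gap between the arrays. It read 3.29 units in CSE-KO, not well above background, and 75.5 units in CSE-WT, well above it. The difference as measured was -4.57, and -1.24 and -1.19 with the 2 normexp background corrections. Since the CSE-KO reading was not above background and the size depends on the correction, no fold is given. Its first 30 bases are shown because the only reading past 2-fold came from it.
Bhmt2 probe 1: gctttatgccaaacttaatcaccaatgctc

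The Bhmt2 spot lay in a small area where dim spots read lower on the CSE-KO array than on the CSE-WT array. Which of the arrays was uneven there was not tested. Of the 6 nearest spots, 5 were lower in CSE-KO, with differences of -41.5 to -34.5 units, whereas the sixth, which is far brighter, read 22825 units in CSE-KO and 22621 units in CSE-WT. Over the 10 dim spots among the 18 nearest, the median of CSE-KO minus CSE-WT was -28.1 units (range -42.9 to 2.67), and 9 of the 10 were lower in CSE-KO. Bhmt2 itself differed by -72.2 units. The same median around the other 16 member spots lay between -2.21 and 1.01 units. Single dim spots there could differ more, by -137 units next to Mtr probe 2 and by 93.7 units next to the Mat2b probe. At least as bright as the Bhmt2 reading of the same array were 48 of 308 negative-control spots in CSE-KO and 6 of 308 in CSE-WT.

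The part of the local difference between the arrays in the Bhmt2 reading was not tested, and the probe was counted as unmeasured in the comparisons.

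**Figure D3:**
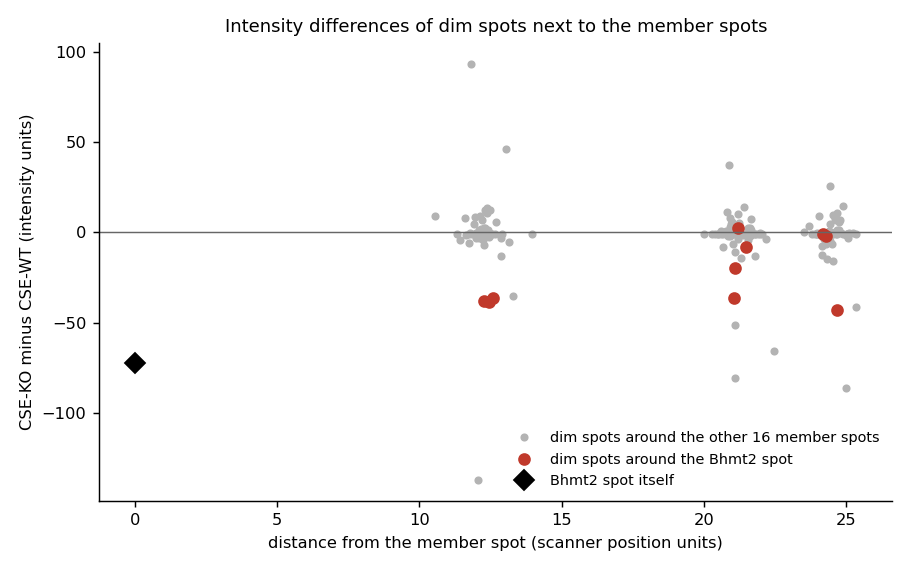
Intensity difference, CSE-KO minus CSE-WT in scanner units, of dim spots (under 100 units on the dimmer array) against their distance from the member spot, among the 18 nearest spots. Around Bhmt2 (red) 9 of the 10 dim spots lie below 0, with a median of -28.1 units, and the Bhmt2 spot (diamond) lies at -72.2 units. Around the other 16 member spots (grey) most points lie near 0.

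The genes that feed and drain the cycle were described through 5 lists with 53 genes, of which 48 were measured. By more than 3 spot SDs, 5 were higher in CSE-KO and 5 lower, none by 2-fold, against 7.84% higher and 8.96% lower over all measured genes. The median over the lists was -0.030. The balance of the calls moved with the scaling, with 8 higher and 1 lower when the arrays were centred on their medians, 9 and 1 without scaling, 6 and 3 with quantile scaling, 5 and 2 with cyclic loess, and 4 and 6 with spike-ins.

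In transsulfuration, Cbs, which condenses homocysteine with serine and stands at the branch out of the cycle, read 13617 units in CSE-KO and 9987 units in CSE-WT. It was thus 1.31-fold higher in the knockout (0.39, spot SD 0.055). Among the enzymes that handle the adenosine released by the hydrolase, Ada, adenosine deaminase, was at 0.29 with its probe in a local patch of uneven brightness, and Adk, adenosine kinase, at -0.063.

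In the folate and cobalamin list, 11 of 11 genes were measured, with 2 higher and 1 lower past 3 spot SDs and a median of 0.0063. Mmachc, which processes cobalamin inside the cell, was lower, at 1035 units in CSE-KO and 1235 units in CSE-WT, a difference of -0.31. Slc19a1, the reduced folate carrier, differed by 0.28 by its brighter probe and by -0.14 by the other, so its direction depends on the probe. Mtrr, which reactivates Mtr, read 135 units in CSE-KO and 129 units in CSE-WT, a difference of 0.0063.

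In the betaine and choline list, 6 of 8 genes were measured and 1 passed 3 spot SDs. This was the choline transporter gene Slc44a1, at 709 units in CSE-KO and 423 units in CSE-WT (1.61-fold higher, 0.69), whereas its other measured probe differed by only 0.12. Chka did not pass by its brightest probe (-0.080), but its 4 measured probes ranged from -0.080 to 0.79. Sardh, which oxidises the sarcosine made by Gnmt, was at 0.13, Aldh7a1, which can form betaine, at -0.13 and Pcyt1a, of phosphatidylcholine synthesis, at -0.087, all within 3 spot SDs. Dmgdh, which oxidises the dimethylglycine left by Bhmt, and Slc6a12, a betaine transporter, were not above background on both arrays.

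Past 3 spot SDs, 7.84% of all measured genes were higher and 8.96% lower. Among 17 measured SAM-dependent methyltransferases 0 were higher and 2 lower past that size, with a median of -0.0017. Among the lower ones was Hnmt, histamine N-methyltransferase (-0.26 by its brighter probe, which lay in a local patch, and -0.052 by the other). The maintenance DNA methyltransferase Dnmt1 was at 0.30, the thiopurine methyltransferase Tpmt at -0.19 and Mettl16, an RNA methyltransferase that controls Mat2a transcripts, at -0.18, all within 3 spot SDs. Among 10 measured genes of polyamine synthesis and methionine salvage 0 were higher and 2 lower, Odc1, ornithine decarboxylase (-0.19, its probes from -0.22 to 0.21), and Enoph1, of the salvage pathway (-0.18). Sat1, which acetylates polyamines, was at -0.15. Srm, spermidine synthase, was at 0.12 by its brighter probe and at -0.029 by the other.

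Markers of the other cell types stand beside these values. Over all measured genes, 7.84% were higher and 8.96% lower past 3 spot SDs. Of 7 macrophage markers 4 were higher and 1 lower past 3 spot SDs (median 0.30, summed unscaled intensity 31319 units in CSE-KO and 23943 units in CSE-WT). Of 4 measured stellate and fibroblast markers, out of 5, 3 were higher (median 0.91, summed unscaled intensity 925 units in CSE-KO and 534 units in CSE-WT). Of 8 beta-cell markers 0 were higher and 1, Pdx1, lower (median -0.088). Of 7 other endocrine markers 1, the ghrelin gene Ghrl, was higher and 4 lower (median -0.14). Of 4 measured ductal markers, out of 6, 1 was higher and 1 lower (median 0.18), and of 4 endothelial markers none passed (median 0.063). The part of these cell types in the differences above was not tested.

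**Figure D4:**
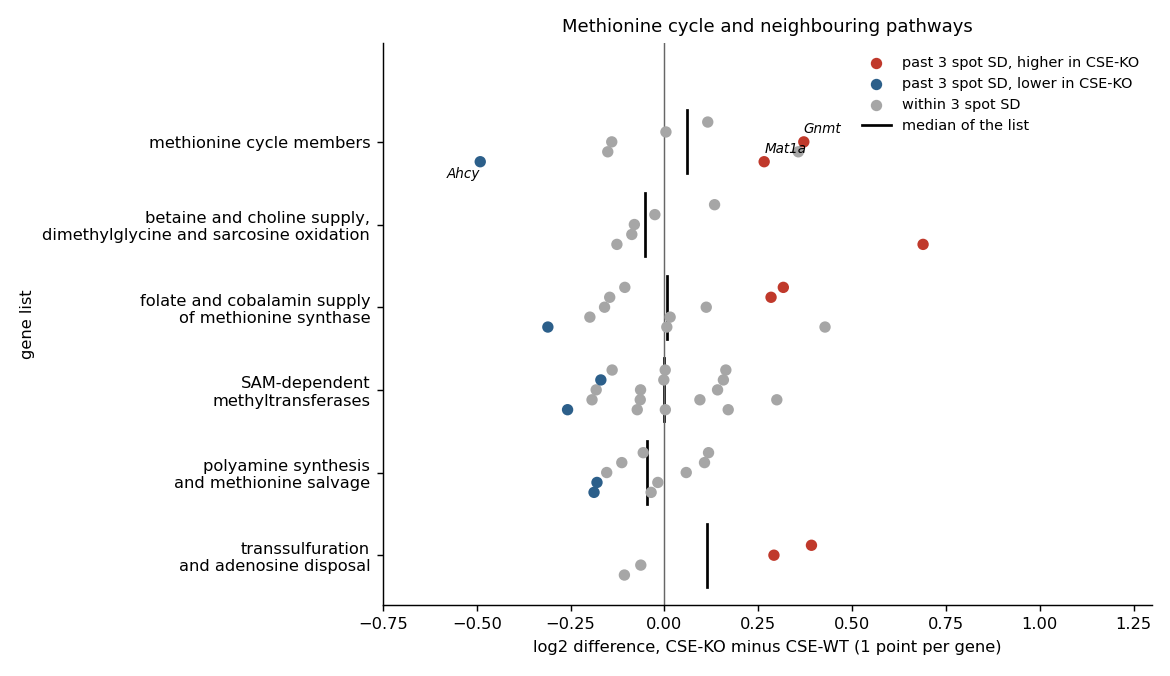
Log2 difference, CSE-KO minus CSE-WT, of each measured gene of the methionine cycle and of 5 lists of neighbouring pathways, 1 point per gene, with the median of each list as a bar. Coloured points passed 3 spot SDs, 7 of them higher in CSE-KO (red) and 6 lower (blue), and the members among them are named. Medians of the lists lie between -0.053 and 0.11.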

How the data were processed

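Per the labels' protocols, cells were lysed in TRIzol, the RNA was cleaned on columns, and Cy3-labelled cRNA was made with a low-input kit. Each sample was hybridised to 1 array, and both arrays share a slide and a scan. Per the file headers, the authors quantified the arrays with Agilent Feature Extraction 10.7.1.1, giving a processed intensity, a raw intensity and flags per spot, whereas version 9.5.1.1 stands in the submitters' processing notes. The authors also deposited a table of intensity values on a linear scale whose columns share their median (37.7 units), as quantile normalization gives; each correlates with its own array at r of 0.9998 and 0.9997 in CSE-KO and CSE-WT across probes. Its exact steps are not given in the sources used here.

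From the processed intensity the log2 was taken, spots with outlier flags were left out (169 gene spots in CSE-KO, 139 in CSE-WT), repeated spots were averaged per probe, and each array's 75th percentile (540 units in CSE-KO, 519 in CSE-WT; 55681 gene probes) was subtracted. A probe was measured when flagged well above background on both arrays (59.6% of probes were in CSE-KO, 57.0% in CSE-WT), and no gene spot was saturated. A gene took the value of its brightest measured probe. A local patch was a spot whose dim neighbours (under 100 units on the dimmer array, at least 4 of the 18 nearest) had a median difference beyond 10 units, a definition set after seeing the data. Alternatives were scaling by medians, quantiles, cyclic loess, spike-ins or none, normexp with an offset of 50, the authors' table and other rules for probes, with Python 3.11.15 and limma 3.58.1. The averaging of spots and the spot SD were run on a simulated pair of arrays. Its noise was drawn from the same spot scatter, so that run cannot check the spot SD as a yardstick.

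Members and lists were chosen with earlier results of these data known, and Chka was named after its values were seen. All members are named with all probes, and of each pathway list the 4 measured genes with the largest absolute difference, plus Cth, Cbs and Mtrr, except that some genes are not reported here; the unmeasured Dmgdh and Slc6a12 were named after their values were seen, as were the markers Ctrb1, Bhlha15, Amy2a5, Ptf1a, Alb, Apoa2, Pdx1 and Ghrl, and the hepatocyte sum without Apoa2 was added then too. List symbols were matched to the arrays by accession, then symbol, then older symbol through a RefSeq gene table; Amd1 found no probe. Of the 17 member probes, 15 match their gene by accession in that table. No genome of the arrays' build was used, so exons and untranslated regions were not assigned. The number of arrays limits the precision.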

Additional observations from a re-analysis of the deposited data

How the results depend on the processing

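All 12 alternatives kept the direction of Ahcy (-0.51 to -0.37), Gnmt (0.32 to 0.43), Mat1a (0.19 to 0.32), Ahcyl1 (-0.16 to -0.085), Mtr (-0.17 to -0.095) and Bhmt (0.066 to 0.41). Not all 12 could change a direction. For Mat1a and Gnmt, with 1 probe each, the rules for dim probes, mean of probes and patches could not alter the value. Scaling by medians, spike-ins or none moved every gene by the same amount. Mat2a ranged from -0.031 to 0.17 and was below 0 only with the mean of probes, and Mat2b ranged from -0.059 to 0.060 and lost its sign in 3 of the 12. The median over the measured members ranged from -0.013 to 0.12. The number of members past 3 spot SDs was 3 in the main setting, 2 with normexp and the 75th percentile, where Mat1a did not pass, and 4 without a filter on dim probes, where Bhmt2 was added. Bhmt2 was also the 1 member past 2-fold there, and its difference ranged from -4.60 to -1.19 over the scaling and background settings. The shares of all genes given above are for the main setting, so the counts in the other settings have no matching share beside them. For the pathway lists, centring on medians gave 8 higher and 1 lower, no scaling 9 higher and 1 lower, quantile scaling 3 lower, cyclic loess 2 lower, and the values deposited by the authors gave 3 lower, as did the mean of probes (3 lower), against 5 and 5 in the main setting. The causes were not tested. The median over all measured genes lay between -0.057 and 0.050 in these settings. No paired analysis was possible because each genotype has 1 array. The CSE-KO reading of Bhmt2 and both readings of 3 Bhmt probes were not well above background, which limits what they show.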
